A study of Mus musculus with 2 samples.

Results

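The transforming growth factor beta (TGF-beta), activin and bone morphogenetic protein (BMP) pathways were described in the corneal epithelium of mice through 50 genes, chosen by name: ligands, latency proteins, receptors, antagonists, Smad transducers and their regulators, and the Id genes that BMP signals induce. Of the 50, 49 had an array row of their own and 47 passed the low-signal filter, out of 19520 genes that did so in all. A gene passed when at least 1 of its readings reached 5.44 on the log2 scale, the median of the whole table. Bmpr1b and Grem1 lay below it in both arrays, and no row was named for Gdf15.

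The study compared the epithelium of wounded eyes with that of the uninjured fellow eyes of C57BL/6 mice, males and females aged 8 weeks, all anesthetized with ketamine and xylazine. In the injured group the epithelium had been taken off through its whole thickness as far as the limbus with a 0.5 mm rust ring remover, and tissue was collected about 48 hours later, when 10% of the wound was still open. Each group was measured on 1 array, and the sources used here do not say how many mice, or of which sex, stand behind it. There is therefore no spread between samples and no test, and each difference below (log2 value of the injured minus the uninjured array) has no replicate check. The call used throughout is a difference of at least 1 on the log2 scale, which is 2-fold.

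In these pathways, ligands bring together type I and type II receptor kinases, which phosphorylate receptor-activated Smad proteins. TGF-beta and activin signal mainly through Smad2 and Smad3, BMPs through Smad1 and Smad5, and both sets enter the nucleus with Smad4. TGF-beta is secreted in a latent form held by binding proteins, while follistatin traps activin and noggin, chordin and gremlin trap BMPs. In the cornea, TGF-beta is known for slowing epithelial proliferation and for its part in migration and scarring after injury.

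Of the 47 measured members, 5 were at least 2-fold higher in the injured epithelium and 3 at least 2-fold lower. Of all genes measured, 4.14% passed 2-fold upward, 3.91% downward and 8.05% either way, while 17.0% of the members passed either way. Bright genes, to which most members belong, passed 2-fold more often: with the brighter value at or above 6.93, the 75th percentile of the table, 8 of 36 members (22.2%) were past 2-fold against 11.9% of 12057 genes. The members were chosen with earlier results of these data known, so these shares are no independent evidence of an excess. The higher members were the activin antagonist Fst, the latency protein Ltbp1, the ligand Bmp3, the receptor Tgfbr2 and the inhibitor of differentiation Id1. The lower ones were Id2, the co-receptor Tgfbr3 and the receptor Tgfbr1. Nearest to the threshold were Id1 on the inside (1.12) and the activin subunit Inhba on the outside (0.87). At 4-fold or more, 4 members remained, Fst and Ltbp1 higher (0.707% of all genes) and Id2 and Tgfbr3 lower (0.779%), where 1.49% of all genes passed either way. At 1.5-fold or more, 11 members were higher (11.1% of all genes) and 4 lower (8.76%), where 19.9% of all genes passed either way. Of the 47 members 29 differed by more than 0 and 18 by less, with a median of 0.07. Of all 19520 genes measured 11398 differed by more than 0 and 7966 by less, with a median of 0.06.

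**Figure D1:**
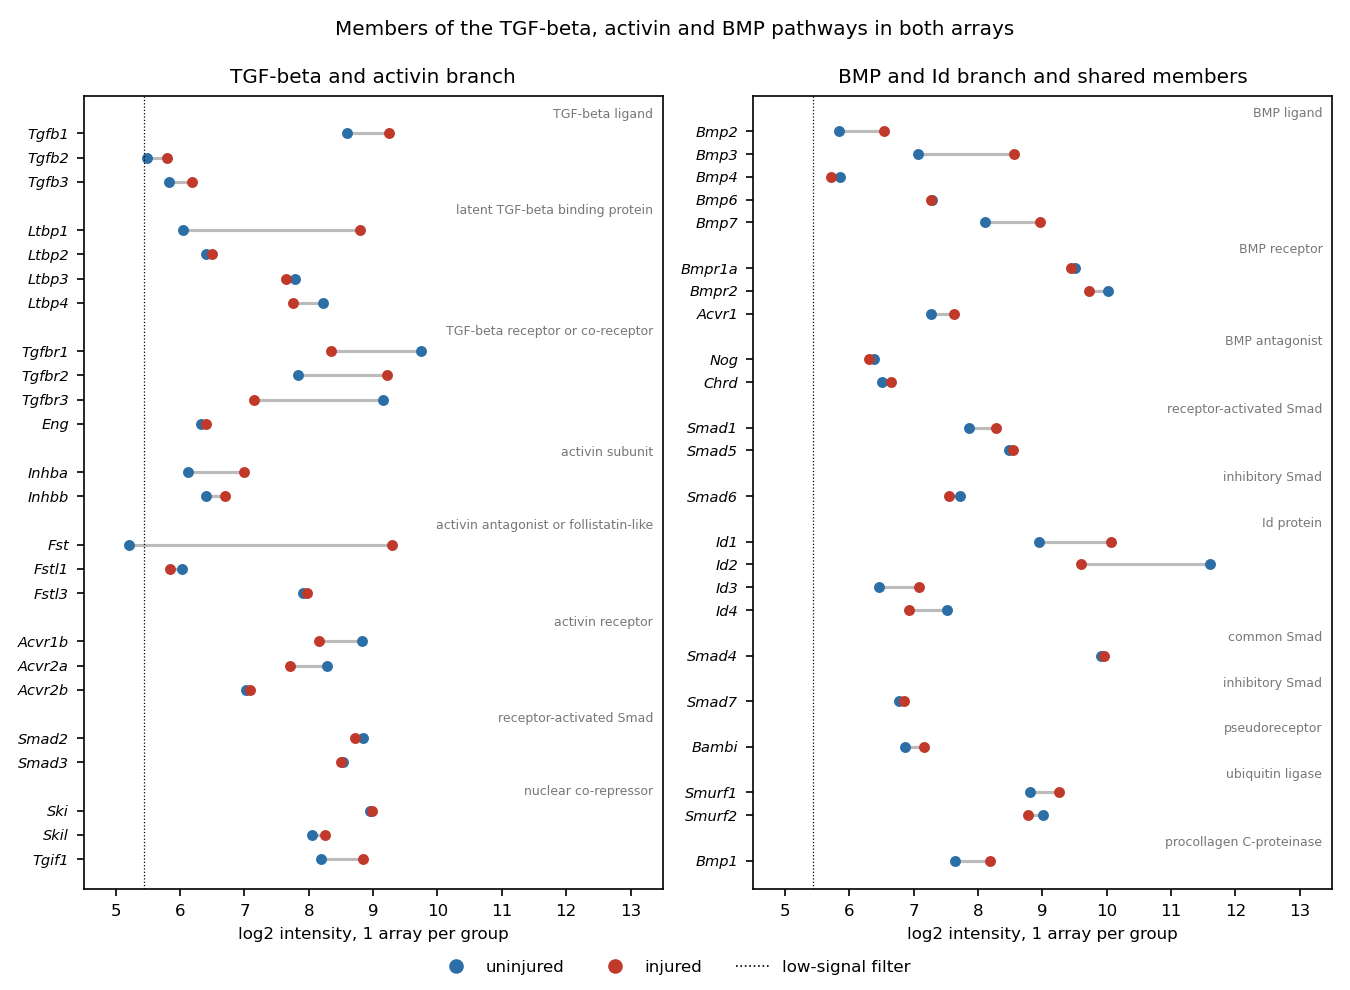
Log2 intensity (x axis) of the 47 measured members in the uninjured (blue) and injured (red) array, 1 array per group, ordered by branch and role, with the low-signal filter at 5.44 as a dotted line. Long bars mark Fst (5.21 uninjured, 9.29 injured) and Ltbp1 (6.05 uninjured, 8.80 injured), and the Smad genes have short ones.

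The TGF-beta and activin branch held 24 genes and the BMP and Id branch 19, and 7 members that act on both or on neither were kept apart. The branches were drawn up with earlier results of these data known, so their shares are no independent evidence of an excess. Both branch medians were close to that of all genes. In the TGF-beta and activin branch 5 of 24 measured genes (20.8%) were past 2-fold, 3 higher and 2 lower, with a median difference of 0.07, where 8.05% of all genes and 11.9% of the bright ones were past it. In the BMP and Id branch 3 of 17 (17.6%) were, 2 higher and 1 lower, with a median of 0.06. All genes measured had a median of 0.06, and the medians of the branches lay 0.0068 apart. Among the 6 measured shared members 0 passed 2-fold, and their median was 0.18. Each branch thus held genes at both ends, from Tgfbr3 to Fst in the TGF-beta and activin branch and from Id2 to Bmp3 in the BMP and Id branch.

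**Figure D2:**
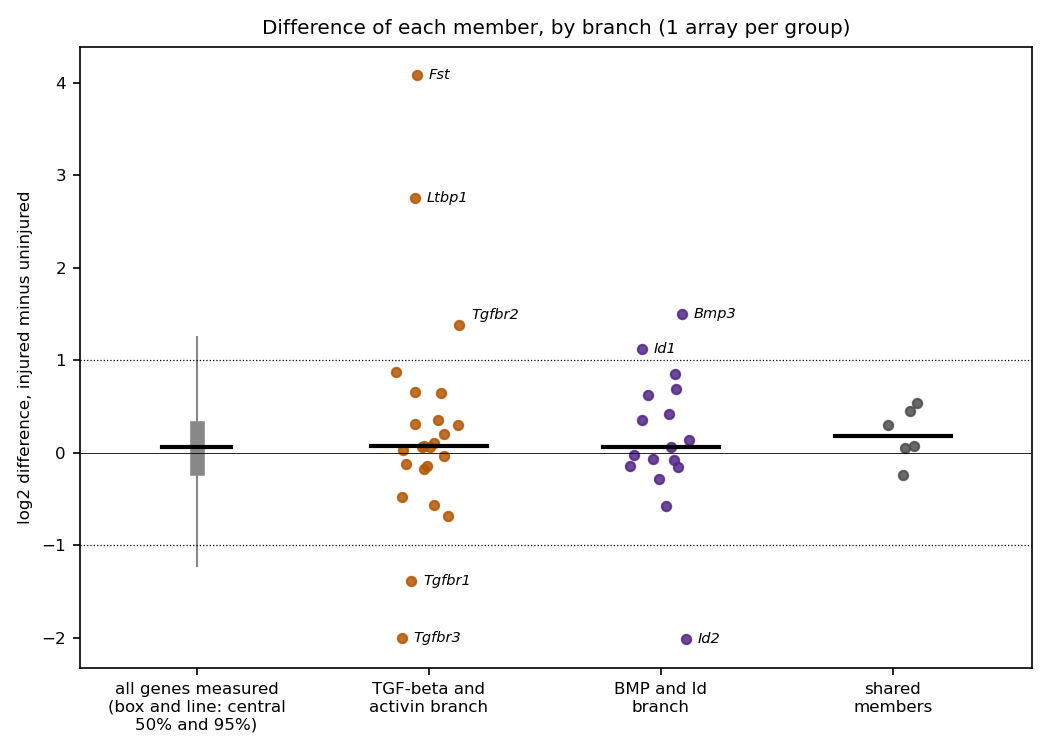
Log2 difference (y axis, injured minus uninjured, 1 array per group) of each measured member by branch, with black bars at the medians and dotted lines at 2-fold; the grey box and line give the central 50% and 95% of all genes measured. Medians of 0.07 and 0.06 stand beside 0.06 for all genes, and the labelled members past 2-fold lie on both sides of 0 in each branch.

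The TGF-beta receptors differed in opposite directions. Tgfbr2, the type II receptor that binds TGF-beta and switches on its partner, read 9.22 injured and 7.83 uninjured, a difference of 1.39 (2.61-fold higher). Tgfbr1, the type I receptor kinase that phosphorylates Smad2 and Smad3, read 8.35 injured and 9.74 uninjured, a difference of -1.39 (2.62-fold lower). The difference of Tgfbr2 exceeded that of Tgfbr1 by 2.77 on the log2 scale, so the receptor partners differed unequally between these arrays. Betaglycan, the co-receptor encoded by Tgfbr3 that presents TGF-beta to the type II receptor and also binds inhibin, read 7.15 injured and 9.16 uninjured, or 4.01-fold lower. Eng, the co-receptor endoglin known from endothelium, read 6.40 injured and 6.33 uninjured. Of 2 endothelial markers measured among 8 listed, Cdh5 and Vwf, 0 passed 2-fold, and Pecam1, Kdr and Tek lay below the low-signal filter in both arrays.

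All 3 TGF-beta ligand genes read higher in the injured array by less than 2-fold. Of all 19520 genes measured, 11398 read higher by any amount. Tgfb1 read 9.24 injured and 8.59 uninjured, a difference of 0.65 (1.57-fold). Tgfb2 read 5.80 injured and 5.48 uninjured. Tgfb3 read 6.19 injured and 5.83 uninjured, and like Tgfb2 it lay near the low-signal filter in both arrays. The latent TGF-beta binding proteins tether the inactive ligand to the matrix, except Ltbp2, which does not bind it. Ltbp1 stood far from the other 3, at 8.80 injured and 6.05 uninjured, which is 6.72-fold higher (2.75) and rank 48 from the top among the 19520 genes. The uninjured value of Ltbp1 lay near the low-signal filter. With a constant of 11.8 added to the linear intensities before the log2 step, the difference of Ltbp1 was 2.55. Ltbp2 (6.50 injured, 6.40 uninjured), Ltbp3 (7.64 injured, 7.78 uninjured) and Ltbp4 (7.75 injured, 8.23 uninjured) differed by 0.10, -0.14 and -0.47.

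The 250 bases upstream of the start of the receptor genes that differed in opposite directions, of Ltbp1 and of Id2 are shown because their genes were past 2-fold, with motifs in capitals. The sequences are those of RefSeq on GRCm38.p6, 5′ to 3′ on the strand of the gene, and where the table gives several starts (Tgfbr1 and Ltbp1) the one with the lowest coordinate is printed. Capitals mark GGCGCC, a GC-rich motif known from BMP-responsive promoters, and CAGAC, the Smad box, searched on both strands, so that CAGAC also appears as GTCTG.
Tgfbr1, lower, chr4:47352972-47353221, plus strand: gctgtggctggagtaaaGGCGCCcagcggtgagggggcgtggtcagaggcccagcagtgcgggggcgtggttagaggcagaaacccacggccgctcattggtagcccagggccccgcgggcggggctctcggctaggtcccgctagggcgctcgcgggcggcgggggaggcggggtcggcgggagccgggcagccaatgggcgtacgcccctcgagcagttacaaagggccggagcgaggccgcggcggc
Tgfbr2, higher, chr9:116175364-116175613, minus strand: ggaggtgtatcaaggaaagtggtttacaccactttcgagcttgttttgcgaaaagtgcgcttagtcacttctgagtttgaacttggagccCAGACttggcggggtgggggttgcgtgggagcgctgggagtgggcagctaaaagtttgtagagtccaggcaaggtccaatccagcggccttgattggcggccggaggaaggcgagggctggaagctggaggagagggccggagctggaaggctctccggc
Ltbp1, higher, chr17:75005279-75005528, plus strand: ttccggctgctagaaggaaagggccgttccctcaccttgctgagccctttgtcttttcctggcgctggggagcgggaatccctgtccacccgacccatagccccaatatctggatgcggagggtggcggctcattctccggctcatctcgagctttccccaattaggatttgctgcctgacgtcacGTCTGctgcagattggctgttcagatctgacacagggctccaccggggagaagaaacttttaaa
Id2, lower, chr12:25096093-25096342, minus strand: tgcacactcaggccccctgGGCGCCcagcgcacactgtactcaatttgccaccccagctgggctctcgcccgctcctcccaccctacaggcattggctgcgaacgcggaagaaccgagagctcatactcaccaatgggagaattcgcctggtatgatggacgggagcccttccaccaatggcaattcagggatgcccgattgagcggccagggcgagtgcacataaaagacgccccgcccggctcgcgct

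In these windows Tgfbr1 and Id2, both lower, held GGCGCC once each and no CAGAC, while Tgfbr2 and Ltbp1, both higher, held CAGAC once each and no GGCGCC. These are 4 windows, the other start listed for Tgfbr1 held CAGAC once and no GGCGCC, the other start for Ltbp1 held CAGAC at 2 places, and a match is not a binding site. GGCGCC occurred in 9.59% and CAGAC in 42.2% of the 32851 upstream windows of the table. Among the 49 windows of the 36 members that had any, 24.5% held GGCGCC and 49.0% held CAGAC. The members' windows were also richer in G and C (median 64.4%) than all windows (52.4%), and the part of this in the share of GGCGCC was not tested. The palindrome GTCTAGAC holds neither motif in full but shares the bases AGAC with CAGAC. It was in 0 of the members' windows and in 0.167% of all.

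Among the activin genes the antagonist differed by more than the ligand. Fst encodes follistatin, which binds activin almost irreversibly and some BMPs more weakly, and it read 9.29 injured and 5.21 uninjured. The measured difference was 4.08. The uninjured value lies below the low-signal filter, so the size is uncertain: against the filter value of 5.44 in its place, the injured array was at least 14.5-fold higher (3.86). With a constant of 11.8 added to the linear intensities before the log2 step the difference was 3.71. Inhba, the subunit of activin A, read 6.99 injured and 6.12 uninjured, a difference of 0.87 (1.83-fold). Inhbb, the subunit of activin B, read 6.70 injured and 6.40 uninjured. The follistatin-like genes stayed close, with Fstl3, another activin-binding protein, at 7.97 injured and 7.91 uninjured and the secreted glycoprotein gene Fstl1 at 5.84 injured and 6.02 uninjured. The activin receptors were less than 2-fold apart: the type I receptor Acvr1b read 8.15 injured and 8.83 uninjured (-0.68), and the type II receptor Acvr2a read 7.71 injured and 8.28 uninjured (-0.56). The other type II receptor, Acvr2b, read 7.08 injured and 7.02 uninjured (0.06).

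**Figure D3:**
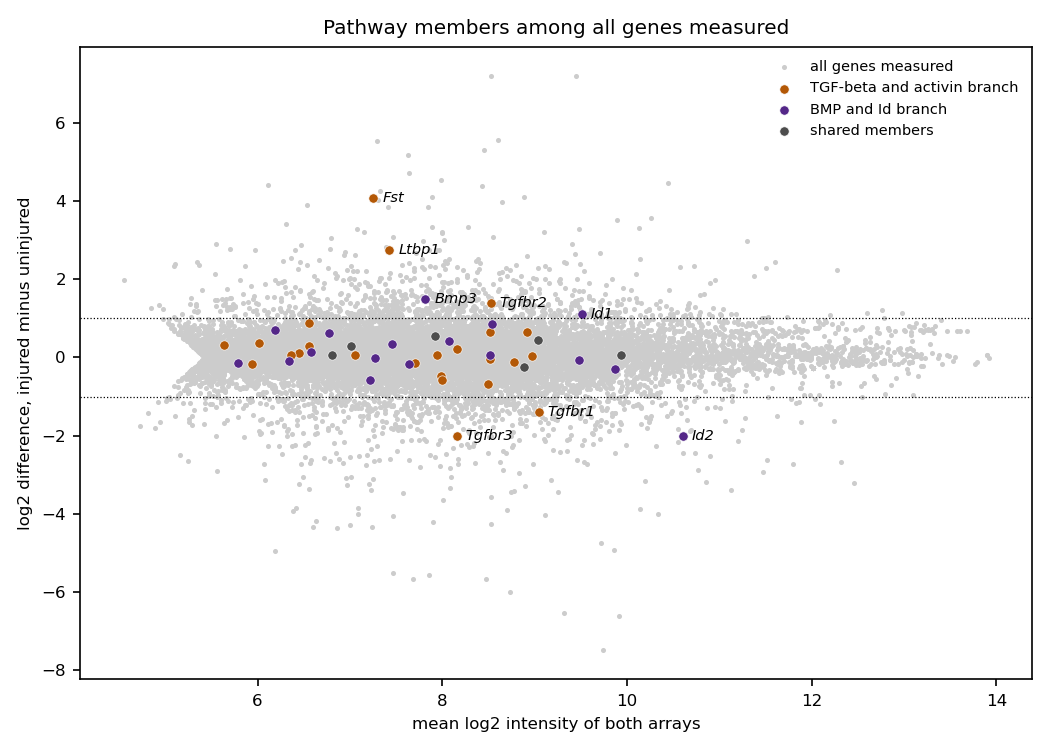
Log2 difference (y axis, injured minus uninjured) against the mean log2 intensity of both arrays (x axis) for the 19520 genes measured (grey) and the members (coloured by branch), with dotted lines at 2-fold. Fst (4.08) and Ltbp1 (2.75) lie above most of the grey cloud, and Id2 (-2.02) lies below most of it.

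Smad genes and their regulators all stayed within 2-fold. The transducers of TGF-beta and activin read 8.71 injured and 8.84 uninjured for Smad2 (-0.12) and 8.49 injured and 8.53 uninjured for Smad3 (-0.04). The BMP transducer Smad5 read 8.54 injured and 8.48 uninjured (0.06), and the common partner Smad4 read 9.96 injured and 9.91 uninjured (0.05). These 4 differed by less than 0.242, the SD of the log2 difference between rows of the same gene over 542 rows of 256 genes on these arrays. Smad1, the other BMP transducer, read 8.27 injured and 7.86 uninjured, a difference of 0.41. Of the inhibitory Smads, Smad6, which acts mainly on BMP signals, read 7.56 injured and 7.71 uninjured, and Smad7, which blocks both branches, read 6.84 injured and 6.77 uninjured. The nuclear co-repressors Ski (8.99 injured, 8.96 uninjured) and Skil (8.26 injured, 8.05 uninjured) differed by 0.03 and 0.21, and Tgif1, a homeodomain co-repressor of Smad2, read 8.84 injured and 8.19 uninjured (0.65). The ubiquitin ligases that mark Smads and receptors for degradation read 9.26 injured and 8.81 uninjured for Smurf1 (0.45) and 8.77 injured and 9.01 uninjured for Smurf2 (-0.24). Bambi, a receptor without a kinase domain that dampens signals, read 7.16 injured and 6.86 uninjured (0.30). In all, 20 of the 47 measured members differed by less than the SD between rows. The median absolute difference was 0.31 for the members and 0.22, below that SD, for all genes measured. The members thus differed by no less than genes in general. Each member had a single row, so none has a second reading.

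Among the BMP ligands Bmp3 was the member past 2-fold. It encodes an atypical BMP that opposes the osteogenic ones, and it read 8.56 injured and 7.06 uninjured, or 2.83-fold higher. Bmp7, a ligand known from kidney and eye development, read 8.96 injured and 8.11 uninjured (0.85), and Bmp2 read 6.53 injured and 5.84 uninjured (0.69), both less than 2-fold. The uninjured value of Bmp2 lay near the low-signal filter. Bmp6 read 7.26 injured and 7.29 uninjured (-0.03), and Bmp4, near the low-signal filter, 5.71 injured and 5.86 uninjured (-0.15). Bmp1, which despite its name is the protease that cleaves procollagen and chordin, read 8.19 injured and 7.64 uninjured (0.54). The receptors differed little: the type I receptors Bmpr1a (9.44 injured, 9.51 uninjured) and Acvr1 (7.63 injured, 7.27 uninjured) by -0.07 and 0.36, and the type II receptor Bmpr2, at 9.73 injured and 10.01 uninjured, by -0.28. The antagonists Nog (6.30 injured, 6.38 uninjured) and Chrd (6.65 injured, 6.51 uninjured) also stayed within 2-fold. Grem1 read 4.61 injured and 4.60 uninjured and Bmpr1b 4.86 injured and 4.80 uninjured, both below the filter.

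The Id genes, direct targets of BMP signals whose products bind helix-loop-helix transcription factors and keep them off DNA, differed in both directions. Id1 read 10.07 injured and 8.95 uninjured, or 2.17-fold higher (1.12). Id2 read 9.59 injured and 11.61 uninjured, or 4.05-fold lower (-2.02), rank 148 from the bottom of all genes measured. The difference of Id1 exceeded that of Id2 by 3.14 on the log2 scale. Id3 read 7.08 injured and 6.45 uninjured (0.63) and Id4 read 6.93 injured and 7.51 uninjured (-0.58), so 2 genes of the family read higher and 2 lower. In the 250 bases upstream, Id4 held GGCGCC once like Id2, and Id3 held CAGAC at 2 places. Id3 and Id4 were both less than 2-fold apart, and no window was listed for Id1. GGCGCC was in 24.5% and CAGAC in 49.0% of the members' windows, and whether either motif goes with a direction was not tested.

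Other genes of the pathway were taken from 7 lists with 140 genes, of which 113 were measured. Past 2-fold were 11 upward and 8 downward, or 16.8% either way against 8.05% of all genes, and the median difference was 0.06. In the list of TGF-beta and activin target genes 12 of 24 measured were past 2-fold, 7 higher and 5 lower, against 8.05% of all genes, and the median was 0.27. The 7 lists were drawn up with earlier results of these data known, so their shares are no independent evidence of an excess or a direction. The list of TGF-beta and activin target genes shares Col1a1 with the stromal markers. The adhesion-modulating matrix glycoprotein Tnc read 10.25 injured and 5.72 uninjured (4.53), and the smooth muscle actin Acta2 read 8.93 injured and 6.68 uninjured (2.25). The uninjured value of Tnc lay near the low-signal filter, so the size of its difference is uncertain. The transglutaminase Tgm2, which crosslinks matrix proteins, read 6.74 injured and 10.31 uninjured (-3.58). Fibronectin, Fn1, read 7.53 injured and 10.97 uninjured (-3.44). Targets thus lay far out on both sides, with Plaur (1.97), Hmga2 (1.48), Klf10 (1.47), Itga5 (1.02) and Ccn2 (1.01) also higher and Rhob (-1.77), Ccn1 (-1.12) and Tgfbi (-1.02) also lower. Calls close to 2-fold depended on the scaling: Itga5, Ccn2 and Tgfbi fell short of it with loess, which left 9 of the 12. In the list of BMP target genes 0 of 11 measured were past 2-fold, where 8.05% of all genes were. Their median was -0.05, with the homeobox gene Dlx5 furthest out (-0.90).

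In the list on latency and activation of TGF-beta 3 of 16 measured genes passed 2-fold upward and 0 downward, against 4.14% and 3.91% of all genes. The median of the 16 was 0.13, and 0.71 over the fewer genes whose brighter value reached the 75th percentile of the table. Under the same filter the median of other receptors and co-receptors went the other way, from -0.02 to -0.29. The 3 genes past 2-fold were Thbs1, whose product thrombospondin releases TGF-beta from its latent form (10.53 injured, 8.10 uninjured, difference 2.43), and the plasminogen activators Plau (1.69) and Plat (1.52). The integrin genes Itgb6 (0.19) and Itgav (-0.04), which encode the epithelial activator of latent TGF-beta, stayed within 2-fold. Among other receptors and co-receptors 1 of 8 measured was past 2-fold, Cd109, a membrane-anchored TGF-beta co-receptor that dampens the signal (9.96 injured, 11.18 uninjured, -1.23). Of 14 other antagonists and modulators, Crim1, a transmembrane protein that binds BMPs (-1.42), and the proteoglycan Dcn (-1.31), which is also a stromal marker, were lower and 0 were higher. The injured value of Dcn, 4.77, lies below the low-signal filter, and against the filter value Dcn was less than 2-fold lower (-0.65). Of 25 other signal transducers only Fkbp1a, which holds type I receptors inactive, was past 2-fold, at 8.70 injured and 6.85 uninjured (1.84). Other ligands of the family had 0 of 15 measured past 2-fold, where 8.05% of all genes passed either way, and their median was 0.13.

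**Figure D4:**
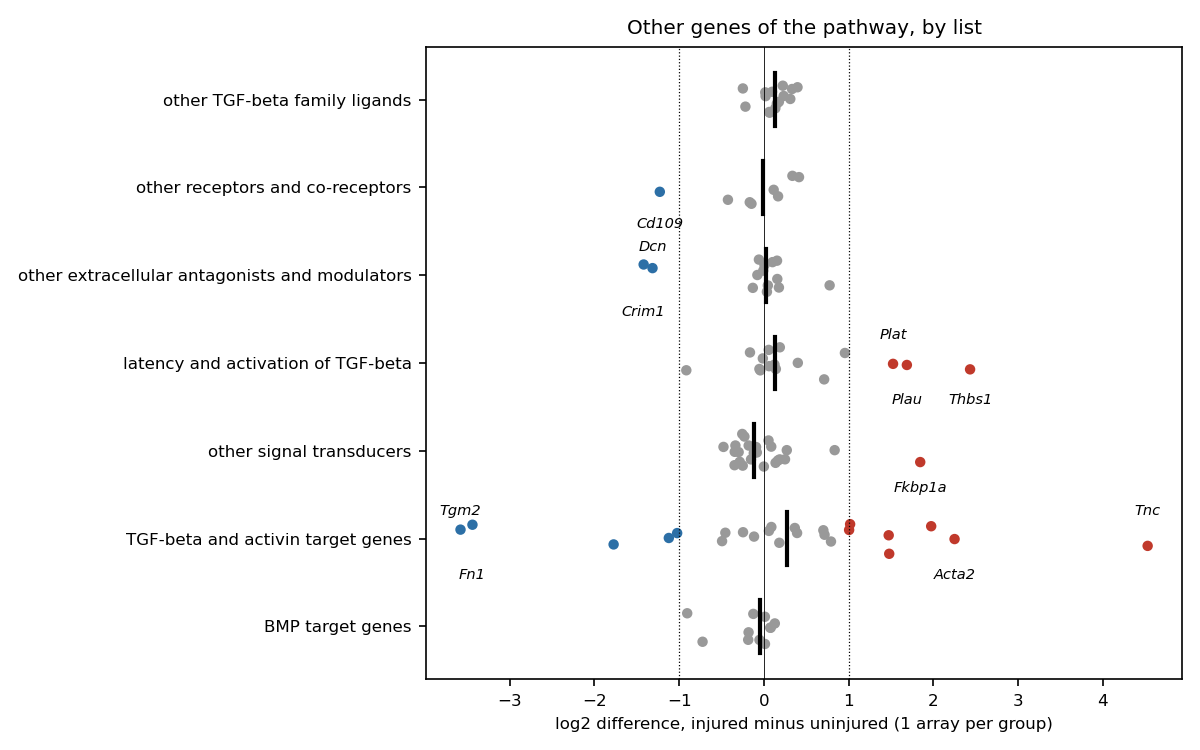
Log2 difference (x axis, injured minus uninjured, 1 array per group) of each measured gene in 7 further pathway lists, red where at least 2-fold higher, blue where at least 2-fold lower, grey between, with black bars at the medians. Target genes of TGF-beta and activin spread from -3.58 (Tgm2) to 4.53 (Tnc). Of the BMP targets (11 measured) and of the other ligands (15 measured) 0 passed 2-fold, where 8.05% of all genes did.

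Both arrays carried the markers of corneal epithelium: Krt5 read 13.69 injured and 13.85 uninjured, and Krt12, the corneal keratin, 10.85 injured and 14.07 uninjured. In bulk tissue, fewer cells of a type and less RNA per cell cannot be told apart. Of the keratocyte and stroma markers 10 of 14 were measured, 1 (Dcn) was at least 2-fold lower and 0 higher, and their summed linear intensity was 915 injured and 920 uninjured, with Kera and Lum below the low-signal filter in both arrays. Of the leukocyte markers 12 of 16 were measured, 11 read higher in the injured array and 1 lower, and the median difference was 0.19. Among all 19520 genes measured 11398 read higher and 7966 lower, with a median of 0.06. S100a9 was past 2-fold upward (1.89), Lyz2 differed by 0.87, and Itgam was past 2-fold downward (-1.55). The leukocyte sums were 1736 injured and 2236 uninjured. Without Itgam, the 1 marker that read lower, they were 1315 injured and 1008 uninjured, so their direction turned on that gene. Ptprc, Adgre1 and S100a8 (5.32 injured, 3.77 uninjured) lay below the filter. Of 6 conjunctival markers Krt7 and Krt19 were at least 2-fold higher and Muc5ac lower, with sums of 12444 injured and 10264 uninjured but a median difference of -0.07. Of 10 corneal epithelium markers 9 were measured, Krt14 at least 2-fold higher and Krt12, Aldh3a1 and Pax6 lower, with sums of 35551 injured and 56777 uninjured. Melanocyte and Schwann cell markers (5 of 8 measured) and platelet and red blood cell markers (4 of 8 measured) had 0 past 2-fold, with sums of 499 and 418 injured and 481 and 407 uninjured. For endothelium the sums over both measured markers were 104 injured and 98.6 uninjured. The part of cell makeup in the differences of the members was not tested.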

How the data were processed

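RNA from 1 injured and 1 uninjured sample (2 µg each, labelled with biotin per the labels' protocols) was read on arrays. The deposited values are the authors' log2 intensities of 65952 rows, from 2.54 to 14.07, with medians of 5.44 injured and 5.43 uninjured, and were used as deposited. The submitters' processing notes name Agilent Feature Extraction 9.1, although the row names look like those of transcript-cluster arrays. The sources used here do not give the background correction, probe summary, normalization or genome build, and no detection or saturation call was used.

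Rows were named from the platform annotation, updated through RefSeq: 31265 rows carried 1 gene, 1481 several (left unnamed) and 33206 are unnamed here. Where a gene had several rows past the filter, the row with the highest mean stood for it. Python 3.11.15, numpy 2.4.6, pandas 2.3.3 and statsmodels 0.14.6 were used, and the counting was tested on simulated data. With 1 array per group no test was possible, and the number of arrays limits the precision. Levels of different genes were not compared.

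The members, branches and lists were chosen with earlier results of these data known. All members were named. From each pathway list up to 4 genes at least 2-fold apart were named by size; Plaur, Hmga2, Klf10, Itga5, Ccn2, Rhob, Ccn1, Tgfbi, Dlx5, Itgb6, Itgav and the marker genes were named after their values were seen. RefSeq promoters were searched because their genes were past 2-fold or in the Id family; none was listed for Fst, Tgfbr3, Bmp3 or Id1. Alternatives were other scalings (quantile, equal medians or 75th percentiles, loess with a span of 0.3), filters, rows, fold thresholds, an added constant and other branch definitions.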

Additional observations from a re-analysis of the deposited data

How the results depend on the processing

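The 8 members past 2-fold kept their direction and stayed past 2-fold under the 10 alternatives of scaling, filter, row and added constant, except that Fst was not measured when both values had to reach the filter. No other member passed 2-fold under them. Each member had a single row, so the row settings could not change a member's value. The filter settings could only drop a member or, without a filter, add Bmpr1b and Grem1. Only the scalings and the added constant could move a value. The difference between the branch medians ran from -0.029 to 0.043 over 13 settings and was above 0 in 10. Scalings that shift all genes by the same amount cancel in it, and the row settings act on no member. Those settings, dropping the low-signal filter and leaving out the Id genes all returned the main value, 0.0068. The count of 10 thus includes repeats of the main value and does not settle the sign. The difference between the branch means was 0.12. Of the 12 target genes of TGF-beta and activin past 2-fold, 9 stayed past it with loess (without Ccn2, Itga5 and Tgfbi), 10 with the added constant (without Ccn2 and Itga5) and 11 each with quantile scaling (without Tgfbi) and equal medians (without Ccn2). Dcn was not measured under the stricter filters. With a 1.5-fold threshold 11 members were higher, 9 of the TGF-beta and activin branch and 6 of the BMP and Id branch were past it, and over all genes 2174 were higher and 1710 lower. With a 4-fold threshold 2 members were higher, 3 and 1 of the branches were past it, and over all genes 138 were higher and 152 lower. Fewer or more genes pass another threshold by its construction. No paired analysis was possible because each group has a single array and the groups share a single replicate number. Without replicates no difference has an error between animals, and values near 5.44, the median of the table, were used without a detection call.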
